A study of Mus musculus with 4 samples.

Results

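The autosomal miR-15/16 family was described in fibroblasts cultured from the joints of arthritic and healthy mice. Its members were taken by name: mmu-miR-15a, mmu-miR-15b, mmu-miR-16, mmu-miR-195 and mmu-miR-497, with either arm of the hairpin. This gave 8 of the 590 miRNAs listed in any library: the 5 main strands, and miR-15a*, miR-15b* and miR-16*, where the asterisk marks the usually scarcer arm. TghuTNF mice carry a human TNF transgene and were compared with wild-type (WT) littermates. Both genotypes had a CBA/J * C57BL/6/J background, were 8 weeks old and gave hind joint cells that were grown for 4 passages. Each genotype had 2 biological replicates per the series design, and the labels do not say whether a replicate was 1 mouse or a pool, nor which promoter drives the transgene.

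Mature miRNAs guide Argonaute proteins to messenger RNAs that pair with their seed, the stretch of bases 2 to 8. The miR-15/16 family is known for holding back the cell cycle and survival by repressing cyclins D1 and E1 and the survival factor BCL2. In human chronic lymphocytic leukaemia the locus of miR-15a and miR-16 is often deleted, and in mouse heart muscle miR-195 restrains cell division.

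The main strands are shown because their shared seed, in capitals, makes them a family and because their other bases decide which reads can be told apart. The sequences are from RefSeq (build GRCm38.p6), written 5′ to 3′, with miR-195 and miR-497 matched to miR-195a-5p and miR-497a-5p. X-linked miR-322 is shown as the further relative with the same seed among the measured names. RefSeq holds others with this seed, such as miR-195b, that have no counts under a matching name.
miR-15a: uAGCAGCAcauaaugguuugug
miR-15b: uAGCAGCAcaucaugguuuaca
miR-16: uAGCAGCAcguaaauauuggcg
miR-195: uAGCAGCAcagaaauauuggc
miR-497: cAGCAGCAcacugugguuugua
miR-322: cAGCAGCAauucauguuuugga

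The 5 main strands come from 3 places in the genome. Mir15a (mature strand at chr14:61632075-61632096) and Mir16-1 (chr14:61631880-61631972) lie on the minus strand in Dleu2, a long noncoding RNA gene. By GENCODE, Mir15a is intronic and Mir16-1 overlaps an annotated exon of 1 or more Dleu2 transcripts. Mir15b (chr3:69009772-69009835) and Mir16-2 (chr3:69009902-69009996) lie on the plus strand in an intron of Smc4, which encodes a condensin subunit. Both Mir16 copies give the same main strand, so counts of miR-16 pool the 2 loci. Mir497 (chr11:70234717-70234800) and Mir195a (chr11:70235042-70235135) lie on the plus strand within 419 bases and outside annotated host genes.

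Among the 5 main strands, only miR-16 and miR-195 lay within the authors' limit of 2 mismatches. Aligned from base 1, they differed over 21 bases by G10A and U11G (miR-16 base, position, miR-195 base), which are the capitals below. All other pairs differed at 4 or more positions.
miR-16: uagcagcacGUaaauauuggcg
miR-195: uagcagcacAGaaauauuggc

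The deposited values are raw counts of reads that match each miRNA, split into matches with 0, 1 and 2 mismatches. The libraries held 22959408 to 27362819 matches in TghuTNF and 16680860 to 26542371 in WT. The family took 0.0814% and 0.100% of matches in the TghuTNF libraries, against 0.145% and 0.111% in the WT libraries. TghuTNF replicate 2 had 11.7% of all its matches with 2 mismatches, against 8.21% to 8.73% in the other 3 libraries. Levels are given as CPM (counts per 1000000 matches) after TMM scaling, a correction for library composition. For perfect matches, CPM is per 1000000 perfect matches, so a miRNA can stand higher there than over all matches. In these cultures a lower level per cell and fewer cells carrying a miRNA cannot be told apart.

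Most matches of miR-195 were not perfect. Perfect matches made up 10.7% of miR-195 matches in TghuTNF replicate 1 (95% Clopper-Pearson interval from 9.96% to 11.4%) and 11.7% in its replicate 2 (11.0% to 12.5%), against 14.2% in WT replicate 1 (13.5% to 14.9%) and 13.6% in WT replicate 2 (12.9% to 14.3%). These intervals cover counting error only. Matches of the other main strands were mostly perfect. For miR-15a the perfect share was 87.5% ± 5.95 in TghuTNF and 89.1% ± 2.30 in WT (SD, n = 2), and for miR-15b 89.2% ± 6.35 in TghuTNF and 95.1% ± 0.0070 in WT. For miR-497 it was 85.1% ± 4.13 in TghuTNF and 89.9% ± 0.43 in WT, and for miR-16 68.5% ± 5.44 in TghuTNF and 73.5% ± 1.54 in WT. TghuTNF replicates 1 and 2 differed: 91.7% and 83.3% for miR-15a, 93.7% and 84.8% for miR-15b, and 88.0% and 82.2% for miR-497. For miR-16 the order was the other way, at 64.6% and 72.3%. Over all miRNAs, 66.0% of matches were perfect in TghuTNF replicate 2, against 69.6% to 70.5% in the other libraries.

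**Figure D1:**
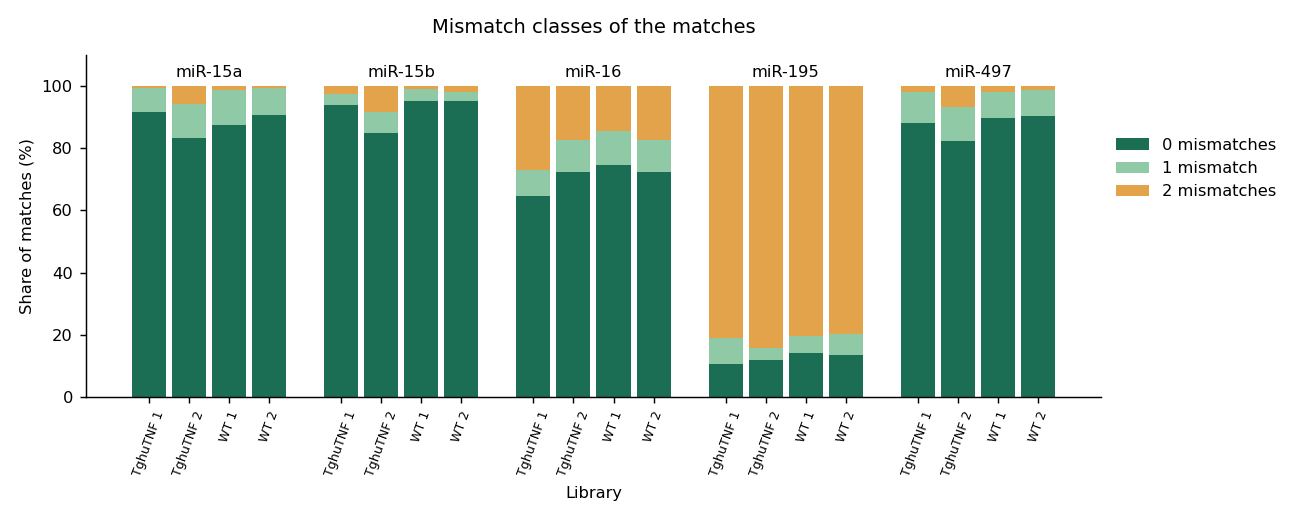
Share of the matches of each main strand with 0, 1 and 2 mismatches (percent, y axis) in each library (x axis). Matches with 2 mismatches fill most of the miR-195 bars in all 4 libraries and the smaller part of every other bar.

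The 2-mismatch matches of miR-195 ran close to the 0- and 1-mismatch matches of miR-16 in every library. They numbered 5648 and 6173 in the TghuTNF libraries, against 7429 and 7798 in the WT libraries. Matches of miR-16 with 0 or 1 mismatch numbered 5701 and 6344 in TghuTNF, against 7680 and 7956 in WT, so the ratio was 0.991 and 0.973 in TghuTNF and 0.967 and 0.980 in WT. Perfect matches of miR-16 alone numbered 5051 and 5550 in TghuTNF, against 6706 and 6984 in WT. These were below the 2-mismatch matches of miR-195 in every library. A perfect read of either name has 2 mismatches to the other, while a 1-mismatch read can lie beyond the limit, so these ratios do not compare like sets. In the other direction, the 2-mismatch matches of miR-16 were 1.59 and 1.16 times the 0- and 1-mismatch matches of miR-195 in TghuTNF, against 0.715 and 0.858 times in WT. The tables hold counts and no reads, so how many reads were counted under both names was not tested. Total counts of both names are uncertain for this reason, and results over perfect matches are given beside them. Matches with 2 mismatches made up 14.5% to 27.1% of miR-16 matches, against 79.9% to 84.4% of miR-195 matches.

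**Figure D2:**
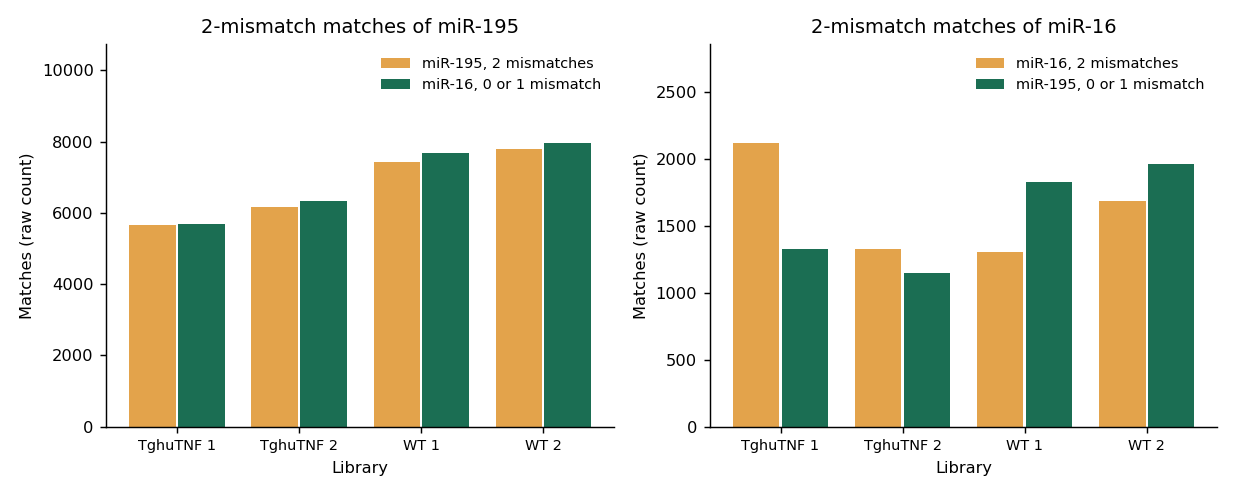
Raw matches per library (y axis) of miR-195 with 2 mismatches beside miR-16 with 0 or 1 mismatch (left), and of miR-16 with 2 mismatches beside miR-195 with 0 or 1 mismatch (right). The left pairs of bars are nearly level in all 4 libraries, with ratios of 0.967 to 0.991, while the right pairs differ in either direction. The bars for 0 or 1 mismatch include reads that can lie beyond the limit of 2 mismatches for the other name.

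The choice of matches set the place of miR-195 within the family. Over all matches it ranked 89 of 442 miRNAs by mean CPM, next to miR-16 at 88, and over perfect matches it ranked 134 of 380, near miR-15b at 136. The mature strands are 21 or 22 bases long, so CPM was compared between them without a length correction. By perfect matches the order was miR-16, miR-15a, miR-497, miR-195 and miR-15b. miR-16 and miR-15a overlapped in the TghuTNF libraries and not in the WT libraries. miR-497 and miR-195 overlapped in WT and not in TghuTNF, and miR-195 and miR-15b overlapped in both genotypes.

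None of the 7 family names that passed the filter on low counts was called between genotypes. With edgeR's quasi-likelihood test over all matches and Benjamini-Hochberg adjustment over 442 miRNAs, 0 of 7 passed an adjusted p of 0.05, 3 had an unadjusted p under 0.05 (miR-15b, miR-16 and miR-195), and DESeq2 also called 0. Of all 442 miRNAs, 13.3% were called, 8.6% were called lower in TghuTNF, and 29% passed an unadjusted p of 0.05. All 7 had a negative log2 fold change, as did 218 of the 442. Their median was -0.40, against 0.0056 over all miRNAs tested. In 5 of the 7 both TghuTNF libraries lay below both WT libraries, as did 29.9% of all miRNAs tested. Because miR-16 and miR-195 may share reads over all matches, these counts may not hold them as 2 separate names.

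miR-16, which represses cyclins and BCL2, had the most perfect matches of the family in every library. Over all matches it stood at 283 and 341 CPM in the TghuTNF libraries, against 547 and 354 CPM in the WT libraries. The genotypes did not overlap, but TghuTNF replicate 2 lay close to WT replicate 2 and WT replicate 1 stood well above the rest. The means were 312 ± 40.8 CPM in TghuTNF and 450.5 ± 136 CPM in WT (SD, n = 2), with a log2 fold change of -0.53 ± 0.23 (SE; 95% interval -1.05 to -0.012; edgeR adjusted p = 0.17). With perfect matches the log2 fold change was -0.61 ± 0.27 (edgeR adjusted p = 0.17).

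miR-15b, the partner of miR-16 in Smc4, stood at 26.6 and 46.9 CPM in the TghuTNF libraries, against 82.8 and 49.1 CPM in the WT libraries. As for miR-16, both TghuTNF libraries were below both WT libraries, by little between the replicates numbered 2. The log2 fold change was -0.84 ± 0.33 (95% interval -1.57 to -0.12; edgeR adjusted p = 0.12), and -0.93 ± 0.33 with perfect matches (edgeR adjusted p = 0.11).

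miR-15a, the partner of miR-16 in Dleu2, stood at 176 and 229.8 CPM in the TghuTNF libraries, against 198 and 222 CPM in the WT libraries. The genotypes overlapped. Its log2 fold change was -0.050 ± 0.21 (edgeR adjusted p = 0.91), with a 95% interval of -0.52 to 0.42.

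Ratios of partners were taken within libraries, where scaling plays no part. Perfect matches of miR-15b were 0.155 and 0.208 times those of miR-15a in the TghuTNF libraries, against 0.454 and 0.232 times in the WT libraries. The same ratio for miR-15b over miR-16 was 0.136 and 0.161 in TghuTNF, against 0.193 and 0.182 in WT. Neither ratio overlapped between genotypes, though for miR-15b over miR-15a TghuTNF replicate 2 lay close to WT replicate 2, and for each the exact two-sided permutation test gave p = 0.333, the smallest that 2 libraries against 2 allow. miR-15a over miR-16 stood at 0.881 and 0.777 in TghuTNF, against 0.425 and 0.785 in WT, and overlapped. These 3 ratios, and that of miR-497 over miR-195 below, were chosen after values were seen.

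miR-195, counted by perfect matches, stood at 38.2 and 56.6 CPM in the TghuTNF libraries, against 114 and 71.0 CPM in the WT libraries. Both TghuTNF libraries were below both WT libraries. The log2 fold change of perfect matches was -0.96 ± 0.31 (95% interval -1.65 to -0.27; edgeR adjusted p = 0.075 over 380 miRNAs). Over all matches, which ran with those of miR-16, it was -0.67 ± 0.24 (edgeR adjusted p = 0.099), with 253 and 325 CPM in TghuTNF, against 563 and 359 CPM in WT. With perfect matches DESeq2 called it (log2 fold change -0.93, adjusted p = 0.027), as it did 61 of the 380 miRNAs tested. Over perfect matches edgeR called 0 of the 7 family names, against 13.2% of the 380 miRNAs tested, and 3 of the 7 passed an unadjusted p of 0.05, against 28.7%. In 5 of the 7 the perfect matches of both TghuTNF libraries lay below both WT libraries, against 32.9% of the 380.

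miR-497, the neighbour of miR-195 on chromosome 11, stood at 54.2 and 67.0 CPM in the TghuTNF libraries, against 64.8 and 83.8 CPM in the WT libraries. The genotypes overlapped, with a log2 fold change of -0.29 ± 0.24 (95% interval -0.82 to 0.23; edgeR adjusted p = 0.44). With perfect matches it stood at 67.6 and 81.9 CPM in TghuTNF, against 82.8 and 110.1 CPM in WT, with no overlap but a narrow gap (-0.37 ± 0.25; edgeR adjusted p = 0.36). Perfect matches of miR-497 were 1.77 and 1.45 times those of miR-195 in TghuTNF, against 0.728 and 1.55 times in WT. WT replicate 1 was thus the 1 library in which miR-195 had more perfect matches than its neighbour.

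**Figure D3:**
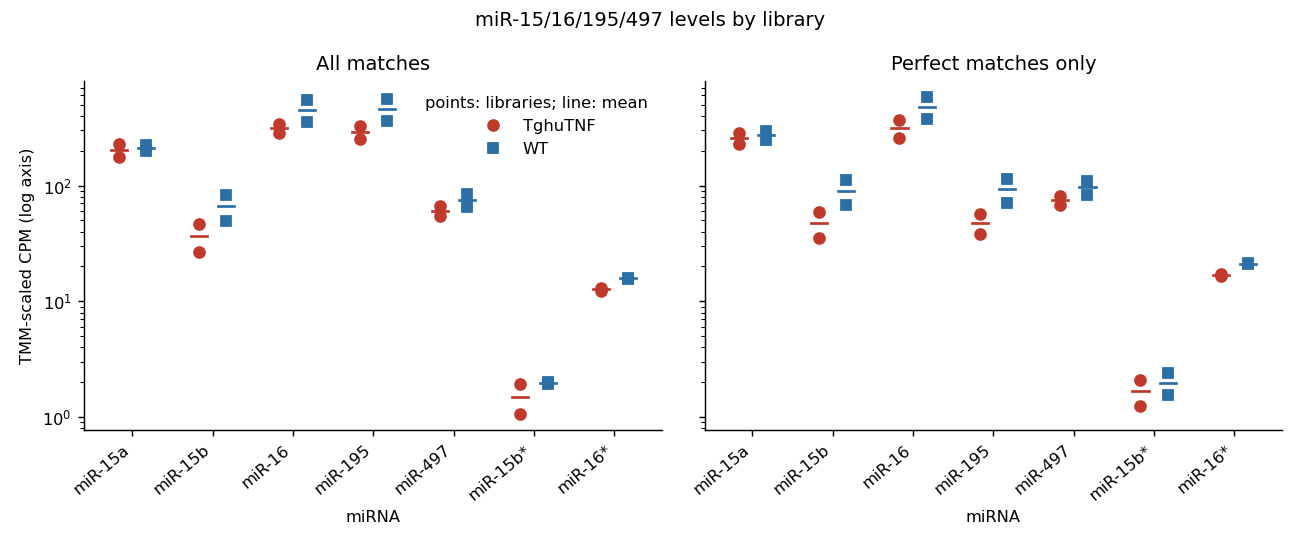
TMM-scaled CPM (log axis) of the 7 family names that passed the filter, over all matches (left) and perfect matches (right), with 1 point per library and a line at each genotype's mean. Each panel is scaled to the total of its own kind of match. miR-195 drops from the level of miR-16 on the left to that of miR-15b on the right, and the TghuTNF and WT points of miR-15a overlap in both.

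The other arms were much scarcer. miR-16* stood at 12.4 and 13.1 CPM in the TghuTNF libraries, against 15.6 and 15.9 CPM in the WT libraries, with a log2 fold change of -0.30 ± 0.25 (edgeR adjusted p = 0.44). Which of the 2 Mir16 hairpins this name stands for was not resolved here. miR-15b* stood at 1.92 and 1.07 CPM in TghuTNF, against 1.95 and 2.02 CPM in WT, with a log2 fold change of -0.40 ± 0.40 (edgeR adjusted p = 0.54). miR-15a* had 3 and 3 matches in TghuTNF, against 1 and 4 in WT, did not pass the filter and was not compared.

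Arm ratios compare both strands within a library; for miR-16 the main strand pools 2 hairpins. The log2 ratio of miR-16 to miR-16* was 4.51 and 4.69 in TghuTNF, against 5.13 and 4.48 in WT. That of miR-15b to miR-15b* was 3.78 and 5.43 in TghuTNF, against 5.39 and 4.59 in WT. Both overlapped between genotypes, with differences of -0.20 ± 0.30 (95% interval -0.93 to 0.53) and -0.38 ± 0.56 (-1.73 to 0.97), and each had a limma adjusted p = 0.87. limma called 0 of 106 arm pairs (0%), of which 6 (5.66%) had an unadjusted p under 0.05. The odds of a perfect match, tested the same way, gave 0 calls among 267 miRNAs (0%), with 10 (3.75%) at an unadjusted p under 0.05 and none of those among the 6 family names tested.

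Summed over the 5 main strands, perfect matches stood at 629 and 849 CPM in the TghuTNF libraries, against 1138 and 916 CPM in the WT libraries. The means were 739 ± 155 CPM in TghuTNF and 1027 ± 157 CPM in WT (SD, n = 2), a log2 ratio of -0.48. The exact two-sided permutation test gave p = 0.333, the smallest possible here. The log2 ratio was -0.27 without TghuTNF replicate 1, -0.68 without TghuTNF replicate 2, -0.29 without WT replicate 1 and -0.63 without WT replicate 2. miR-16 supplied 41.2% and 43.2% of the sum in TghuTNF, against 51.1% and 40.8% in WT, and miR-15a supplied 36.3% and 33.5% in TghuTNF, against 21.7% and 32.0% in WT.

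**Figure D4:**
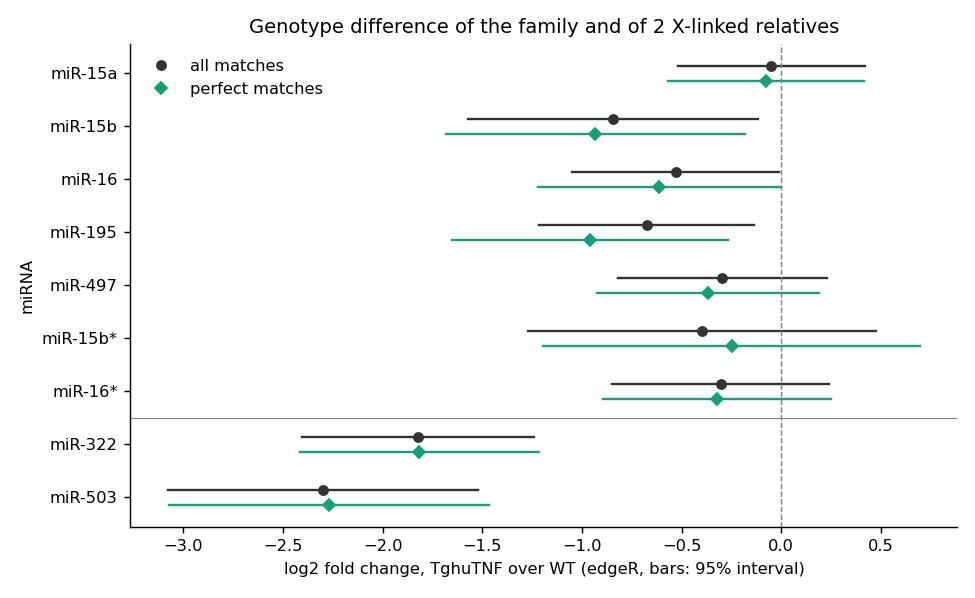
log2 fold change of TghuTNF over WT (x axis) with its 95% interval for the 7 family names and, under the line, X-linked miR-322 and miR-503, over all matches and over perfect matches. All family estimates lie below 0, and the intervals of miR-15a, miR-497 and both star arms span 0.

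X-linked miR-322, which has the family seed, and miR-503, whose seed differs at its last base, were called lower in TghuTNF. miR-322 stood at 29.3 and 19.4 CPM in TghuTNF, against 90.6 and 82.1 CPM in WT (log2 fold change -1.82 ± 0.26 by edgeR; adjusted p = 0.0010). miR-503 stood at 1.74 and 1.02 CPM in TghuTNF, against 6.45 and 7.27 CPM in WT (-2.30 ± 0.35; adjusted p = 0.0016 by edgeR). Of the 10 measured names of their cluster, 8 fell, 0 rose and 2 did not pass, with a median log2 fold change of -1.79. Whether these changes differ from those of the autosomal members was not tested.

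The size of the family's differences rested on single libraries. Leaving out WT replicate 1 gave log2 fold changes of -0.42 for miR-15b, -0.18 for miR-16 and -0.31 for miR-195. Leaving out TghuTNF replicate 1 gave -0.56 for miR-15b, -0.47 for miR-16 and -0.58 for miR-195. Leaving out TghuTNF replicate 2 gave -1.33 for miR-15b, -0.69 for miR-16 and -0.89 for miR-195. Leaving out WT replicate 2 gave -1.18 for miR-15b, -0.81 for miR-16 and -0.97 for miR-195. Without the filter on low counts, edgeR called miR-15b (adjusted p = 0.012) and miR-195 (0.018) with all 4 libraries. That fit called 93 of 590 miRNAs. For perfect matches of miR-195, leaving out 1 library gave -1.27 to -0.56. Each leave-out fit has 1 library in a genotype, which is assumed to vary like the other genotype.

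**Figure D5:**
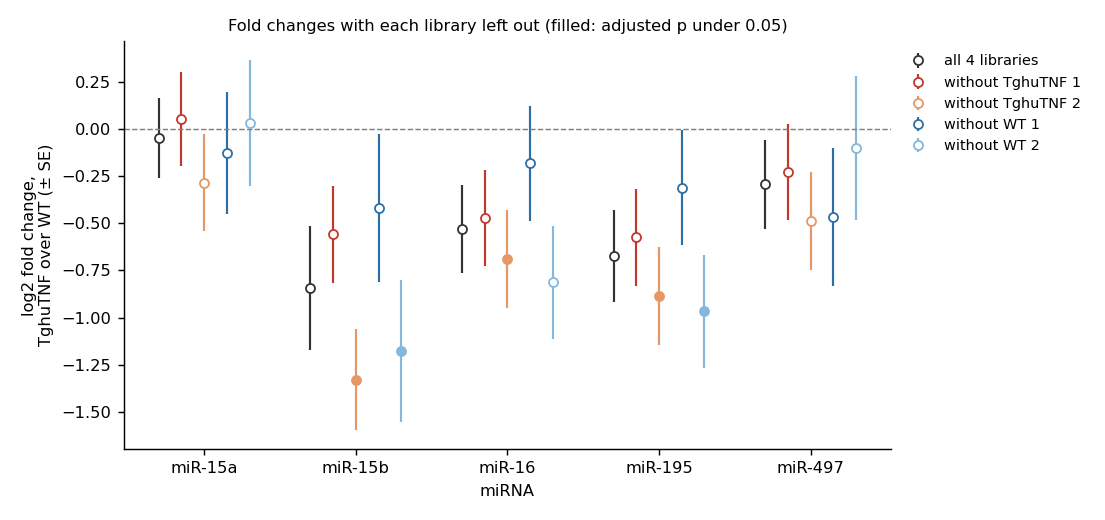
log2 fold change of TghuTNF over WT (y axis, ± SE) of the 5 main strands with all 4 libraries and with each library left out. The values of miR-15b, miR-16 and miR-195 are nearest 0 without WT replicate 1, and filled points, past an adjusted p of 0.05, appear only without TghuTNF replicate 2 or WT replicate 2.

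The 3 miRNAs outside the family whose levels followed miR-16 most closely over the 4 libraries were miR-466j, miR-21* and miR-33. Their distances to miR-16 in centred log2(CPM + 0.5) were 0.10, 0.18 and 0.21. miR-21*, the scarcer arm of mir-21, stood at 76.0 and 102 CPM in TghuTNF, against 154 and 112 CPM in WT. miR-466j and miR-33 were much scarcer than miR-16. miR-466j stood at 3.22 and 3.95 CPM in TghuTNF, against 6.27 and 4.33 CPM in WT. For miR-33 the levels were 4.13 and 5.64 CPM in TghuTNF, against 9.31 and 6.61 CPM in WT.

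Fibroblast markers were high as a sum in every library. The 7 miRNAs, including miR-21, miR-143 and miR-199a, summed to 284404 to 306073 CPM in TghuTNF and 282122 to 294939 CPM in WT. By perfect matches miR-21 ranked 1 and miR-143 ranked 4 of 380 miRNAs by mean CPM, while miR-214 ranked 116 and miR-145 ranked 119. Over perfect matches edgeR called miR-140 higher (log2 fold change 0.88, adjusted p = 0.037) and miR-214 lower (-1.11, adjusted p = 0.031). Muscle markers, of which 5 of 6 had a row and miR-208a had none, summed to 1783 to 2054 CPM in TghuTNF and 2426 to 3008 CPM in WT. The 2 endothelial markers summed to 66.7 to 68.8 CPM in TghuTNF and 108 to 127 CPM in WT. The 7 epithelial ones summed to 30.7 to 36.8 CPM in TghuTNF and 67.7 to 70.9 CPM in WT, but did not all go the same way. By perfect matches miR-203 stood at 14.2 and 11.0 CPM in TghuTNF, against 32.6 and 32.4 CPM in WT. By contrast miR-200c stood at 6.83 and 6.67 CPM in TghuTNF, against 5.12 and 4.82 CPM in WT. The 6 blood cell markers summed to 21.6 to 28.8 CPM in TghuTNF and 6.46 to 16.1 CPM in WT. The 2 neural markers summed to 22.7 to 24.9 CPM in TghuTNF and 23.9 to 33.5 CPM in WT. edgeR called 1 fibroblast and 1 blood cell marker higher and 1 fibroblast, 1 endothelial and 1 epithelial marker lower. The part of these cells in the family's levels was not tested.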

How the data were processed

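The authors deposited 1 table per library of raw counts of reads matching each mature miRNA, not normalised, produced by mimap (version 3d). Per the file headers, mimap compared 37-base reads with 707 mouse mature sequences, allowed up to 2 mismatches and used a hash length of 9. Not given in the sources used here are the miRBase release, adaptor trimming, genome build and how reads that fit several names were assigned. At most 2 matches of a member in a library fell in no mismatch class. A count of 0 allows 3 counts, or 0.110 to 0.180 CPM.

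Names absent from a library were counted as 0. Counts were filtered with filterByExpr, TMM-scaled and tested in edgeR 4.0.16 (R 4.3.3) by its two-sided quasi-likelihood test, with no term but genotype. p-values were adjusted by Benjamini-Hochberg over all miRNAs tested, with a threshold of 0.05. Log2 ratios of arms, and log2 odds of a perfect match for miRNAs with at least 100 matches in each library (pseudocount 0.5), were compared with limma 3.58.1. DESeq2 1.42.0, library size only, 2 filters, a replicate block, leaving out each library and stricter mismatch classes were alternatives. The tests were also run on simulated data with the same spread for every miRNA. Such data do not stand for the replicate spread of these libraries. All 8 members matched a RefSeq name, miR-16* to 2 candidates.

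The miRNAs named were every member, X-linked relatives, any miRNA with a row in the tables that lay within 2 mismatches of a member or shared its seed, and the 3 nearest profiles outside the family. The members and lists were chosen with earlier results of these data known. Replicates are biological per the series design, and neither pair agreed within sampling noise (the chi-square over its degrees of freedom was 510.3 in TghuTNF and 514 in WT).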

Additional observations from a re-analysis of the deposited data

How the results depend on the processing

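Over all matches, DESeq2, library size only and both stricter mismatch classes kept 0 family names called and every log2 fold change of the 7 negative. Family calls numbered 2 (miR-15b and miR-195) without the filter. Over perfect matches DESeq2 gave 1 family call (miR-195), with 61 calls among all 380 miRNAs tested. Calls over all miRNAs numbered 93 without the filter, 14 at a mean CPM of at least 100 (135 miRNAs tested, 3 of them family names) and 49 to 153 with each library left out. Over perfect matches they numbered 93 without TghuTNF replicate 1, 30 without WT replicate 1 and 21 without WT replicate 2. The replicate block gave 2 family calls (miR-15b and miR-195) and 87 calls in all. Over perfect matches it gave 1 family call (miR-195) and 61 calls in all. However, the labels do not say whether same-numbered libraries were prepared together. Deviations of same-numbered libraries correlated at -0.088 over 442 miRNAs, which with 2 libraries per genotype cannot decide whether they were paired. The block also gave 1 call for the odds of a perfect match. Leaving out libraries gave 0 to 1 such calls, and arm pairs gave 1 call without the filter. The sign turned for some small differences. With each library left out, miR-15a ran from -0.28 to 0.052, the arm ratio of miR-15b from -1.21 to 0.44 and of miR-16 from -0.52 to 0.13, and the log2 odds of a perfect match from -0.74 to 0.41 for miR-15a and -0.82 to 0.22 for miR-16*. Over perfect matches, miR-15a stood at 0.076 without TghuTNF replicate 1 and 0.050 without WT replicate 2, and miR-15b* at 0.073 without TghuTNF replicate 2 and 0.11 without WT replicate 2. The causes were not tested. Perfect matches combined with a library left out, the block or DESeq2 were chosen after seeing the data. The 2 libraries per genotype limit the precision: the 95% interval of miR-15b over all matches spanned -1.57 to -0.12.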
